A study of Mus musculus with 8 samples.

Results

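The genes of the collagen chains were identified as every gene whose symbol in the platform annotation has the form of a collagen chain name (Col, the type number, a and the chain number). The annotation gave 46 such probe sets for 44 genes, of 19938 genes with a single symbol, and where a gene had several, the one with the highest average signal was used. RNA of hepatic stellate cells, pericytes of the liver sinusoid that store retinoids, had been hybridised to Affymetrix Mouse Gene 1.0 ST arrays, with 1 array per sample and 8 samples. The knockout group (replicates 5 to 8) came from mice with the Mx1Cre transgene and floxed Lhx2, and the control group (replicates 1 to 4) from Cre-free mice with the same floxed Lhx2 allele, all on a C57BL/6J background. Both groups had received poly(I:C) 3 times, and cells were sorted by retinoid autofluorescence 2 weeks later and lysed at once. Interferon switches Mx1Cre on in cells of many types, and the Cre transgene is present in the knockout group alone, so loss of Lhx2 in stellate cells, its loss in other cells and effects of Cre cannot be told apart. Ages and sexes are not among the labels, and nothing in the labels ties an array to an animal or pool, so p-values here reflect the spread among arrays, part or all of which may be technical.

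Collagens are trimers of alpha chains with long glycine-rich repeats that wind into a helix. Fibrillar collagens such as types I and III form the cross-striated fibrils of connective tissue, and network collagens such as type IV form the sheets of basement membranes. Type VI makes beaded microfilaments around cells, and the fibril-associated collagens with interrupted helices (FACITs) sit on the surface of fibrils. Transmembrane collagens are anchored in the plasma membrane, and multiplexins are basement membrane collagens that carry glycosaminoglycan chains. Stellate cells are known as a main source of fibrillar collagen in scarred liver, and in healthy liver they lie next to the thin matrix of the space of Disse.

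The chains that differed most between the groups were those of type VI and of types I and III, with 1 fibrillar chain, Col24a1, in the opposite direction. The start regions of these genes are shown here because the type VI chains are made from separate genes whose RNA was higher together, and because the start region of Col24a1 stands beside them as that of the chain that was lower. Of the 44 genes, 35 had a start region in the RefSeq table (build GRCm38.p6), with 38 annotated starts in all. Col1a1, which was also higher, was not among these 35 and is not shown. The sequences are the 250 bases before the annotated start, 5′ to 3′ on the strand of the gene, at chr10:76726045-76726294 (-) for Col6a1, chr10:76623405-76623654 (-) for 1 of the starts of Col6a2, chr1:90843972-90844221 (-) for Col6a3, chr6:4505368-4505617 (+) for Col1a2, chr1:45311288-45311537 (+) for Col3a1 and chr3:145292222-145292471 (+) for Col24a1. Capitals mark matches on either strand to CCAAT, known as the CCAAT box, to TATAAA, the TATA box, to TAATTA, the core of LIM homeodomain sites, and to GGGCGG, the GC box, and adjacent matches can overlap.
Col6a1: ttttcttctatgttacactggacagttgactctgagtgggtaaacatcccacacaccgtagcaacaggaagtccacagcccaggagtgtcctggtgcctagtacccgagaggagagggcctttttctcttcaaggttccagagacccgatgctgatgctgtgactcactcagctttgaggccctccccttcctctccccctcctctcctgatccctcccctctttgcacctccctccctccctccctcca
Col6a2: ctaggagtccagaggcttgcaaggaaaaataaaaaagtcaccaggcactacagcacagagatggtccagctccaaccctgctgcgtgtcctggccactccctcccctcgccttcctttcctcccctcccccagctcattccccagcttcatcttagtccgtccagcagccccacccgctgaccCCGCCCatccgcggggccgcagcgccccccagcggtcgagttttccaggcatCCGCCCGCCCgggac
Col6a3: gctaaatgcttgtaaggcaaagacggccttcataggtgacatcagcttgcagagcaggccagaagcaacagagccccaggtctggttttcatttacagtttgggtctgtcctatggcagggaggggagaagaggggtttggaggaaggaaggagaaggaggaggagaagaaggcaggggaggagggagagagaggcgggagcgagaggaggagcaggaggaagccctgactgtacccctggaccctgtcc
Col1a2: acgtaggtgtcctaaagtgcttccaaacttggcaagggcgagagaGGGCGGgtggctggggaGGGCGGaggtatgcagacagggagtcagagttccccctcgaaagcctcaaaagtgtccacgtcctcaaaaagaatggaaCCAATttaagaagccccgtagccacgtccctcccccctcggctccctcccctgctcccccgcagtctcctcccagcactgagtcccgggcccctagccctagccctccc
Col3a1: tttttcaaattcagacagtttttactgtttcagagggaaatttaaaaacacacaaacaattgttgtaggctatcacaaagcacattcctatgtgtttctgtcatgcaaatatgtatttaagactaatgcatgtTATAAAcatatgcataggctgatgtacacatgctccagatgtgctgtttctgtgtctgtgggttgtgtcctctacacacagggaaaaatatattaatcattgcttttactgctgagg
Col24a1: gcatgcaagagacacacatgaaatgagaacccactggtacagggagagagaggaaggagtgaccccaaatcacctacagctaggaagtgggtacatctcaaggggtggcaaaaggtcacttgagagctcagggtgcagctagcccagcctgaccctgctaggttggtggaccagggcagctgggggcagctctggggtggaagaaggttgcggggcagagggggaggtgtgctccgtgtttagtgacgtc

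The printed start regions shared few of these motifs. GGGCGG was present before Col6a2 and Col1a2, CCAAT before Col1a2, and TATAAA before Col3a1, and none of the searched letters lay in the printed stretches of Col6a1, Col6a3 or Col24a1. The TATAAA match of Col3a1 had its first base at -117 from the annotated start, and whether it acts as a TATA box was not tested. Over the whole windows, which run from 250 bases before to 50 bases after the start, TAATTA was found in 2 of the 38 windows of collagen genes (5.26%), those of Col10a1 and Col11a2, against 5.29% of all 32851 windows. CCAAT was found in 34.2% of the collagen windows and 37.4% of all windows. TATAAA was found in 13.2% of the collagen windows and 13.6% of all windows, and GGGCGG in 60.5% of the collagen windows and 35.7% of all windows. The absence of a match says only that these letters are not in this window.

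The deleted gene, Lhx2, had log2 levels of 11.09, 11.24, 11.35 and 11.49 in the knockout arrays, against 12.07, 11.88, 11.94 and 11.92 in the control arrays. Every knockout array was below every control array (limma adjusted p = 0.00136), at 63.3% of the control level, and whether its 1 probe set lies in the deleted part is not given in the labels. All 11 measured stellate markers stood above the 95th percentile of 1190 olfactory and vomeronasal receptor genes, a log2 level of 6.77. Their mean ran from 13.13 to 13.15 over the knockout arrays and from 13.24 to 13.33 over the control arrays. Reln (-0.26), Hgf (-0.37) and Hand2 (-0.48) were the 3 markers called lower on the log2 scale (3.63% of all genes), and the others did not pass. Among these others, Ngfr (-0.23), Vipr1 (-0.13) and Dcn (-0.12) also had every knockout array below every control array (6.32% of all genes). The groups overlapped for Ecm1 (-0.11), Pdgfrb (-0.03), Colec11 (0.02), Des (0.07) and Lrat. Lrat, the retinol-esterifying enzyme, averaged 13.75 in knockout and 13.65 in control arrays. Transcripts of other liver cells were also measured: the mean of 12 hepatocyte markers ran from 9.71 to 11.14 over the knockout arrays and from 9.23 to 11.28 over the control arrays, and that of 12 sinusoidal endothelial markers from 8.65 to 9.93 over the knockout arrays and from 8.66 to 11.18 over the control arrays. Of the endothelial markers, Clec4g was called lower (11.10 in knockout and 12.33 in control arrays, limma adjusted p = 0.0177) and 11 did not pass, and no hepatocyte marker passed. Of 9 Kupffer cell and leukocyte markers, Cd68 was called lower (9.81 in knockout and 10.41 in control arrays, limma adjusted p = 0.0278) and 8 did not pass, among them Vsig4 with a change of -1.24 (limma adjusted p = 0.104). The mean of this list ran from 7.33 to 7.85 over the knockout arrays and from 7.41 to 8.36 over the control arrays. Of 5 measured cholangiocyte markers none passed, and 3 (Epcam, Krt19 and Cftr) were below the receptor percentile in both groups. The part of Kupffer cells and leukocytes in the collagen values was not tested. In such sorted samples, fewer cells of a type and less RNA per cell cannot be told apart.

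Of the 44 collagen genes, limma called 6 higher and 1 lower in the knockout (adjusted p under 0.05, with adjustment over all 19938 genes). Over all genes tested, 3.76% were called higher and 3.63% lower, against 13.6% and 2.27% of the collagen genes. The 4 knockout arrays all lay above the 4 control arrays for 10 collagen genes, 22.7% of them (6.38% of all genes), and below them for 3 collagen genes, 6.82% of them (6.32% of all genes). At an unadjusted p under 0.05, 10 collagen genes were higher (8.91% of all genes) and 3 lower (8.57% of all genes). The median log2 change of the 44 genes was 0.02, beside -0.02 over all genes. The family as a whole therefore had a median near that of all genes, while a few chains stood far from it.

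**Figure D1:**
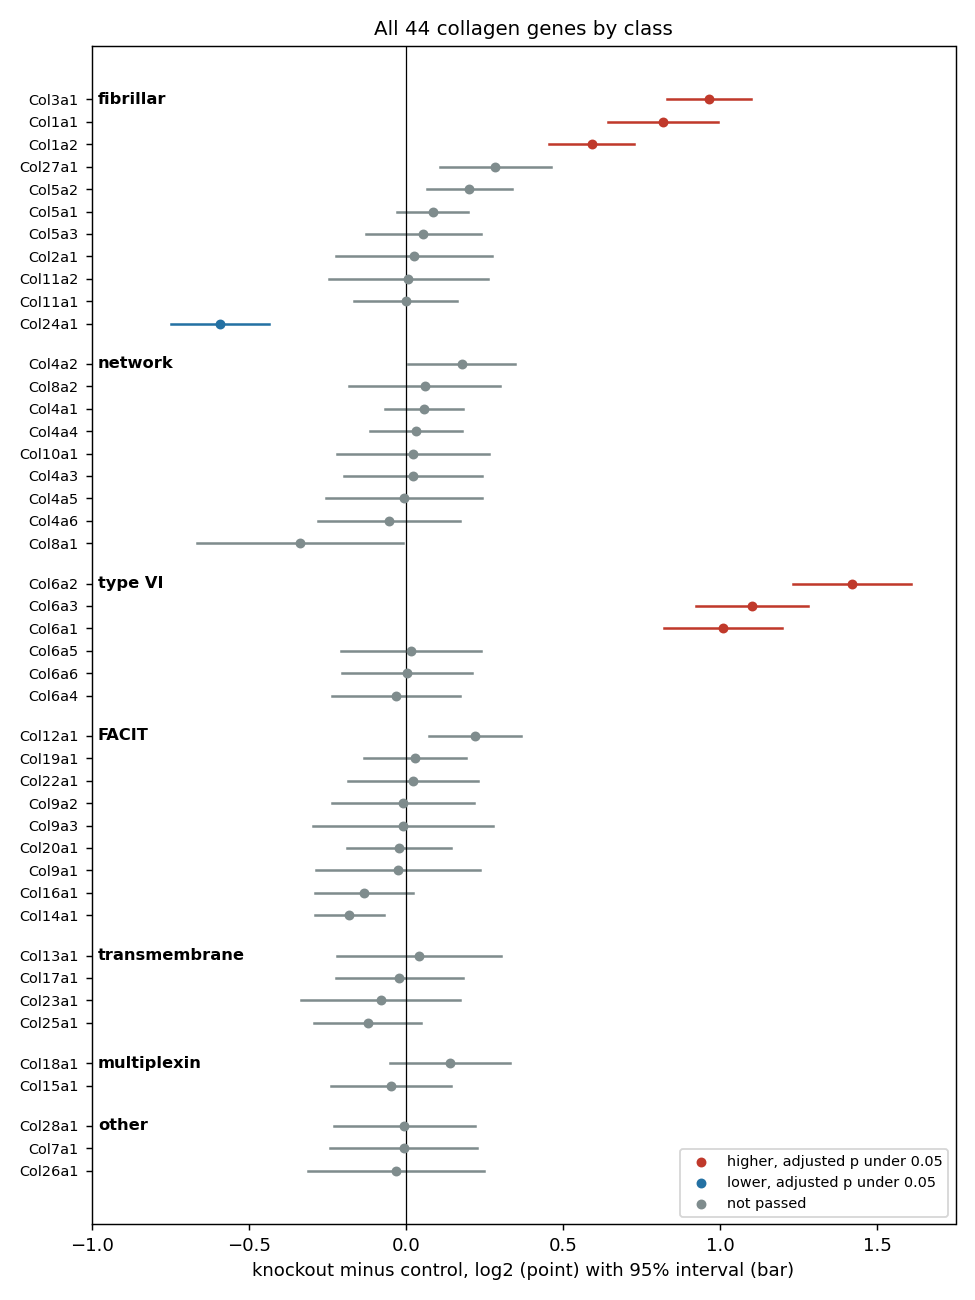
The log2 difference between knockout and control (points) with its 95% interval from limma (bars) for all 44 collagen genes, grouped by class. The 3 chains of type VI and 3 fibrillar chains with intervals from 0.46 upwards are the genes called higher, Col24a1 is the gene called lower, and 37 genes did not pass.

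Type VI collagen held the largest rises of the family. Col6a1, Col6a2 and Col6a3, the chains that assemble into the common form of type VI, rose, and their relatives Col6a4, Col6a5 and Col6a6 did not pass the test. Col6a2 had log2 levels of 12.65, 12.91, 12.94 and 12.68 in the knockout arrays, against 11.31, 11.27, 11.48 and 11.43 in the control arrays. The groups lay more than 1 log2 unit apart, a 2.68-fold difference (95% interval of the log2 change 1.23 to 1.61; limma adjusted p = 8.47e-06). Col6a3, which encodes the longest of these chains and whose C-terminal fragment is released as endotrophin, had 12.59, 12.63, 12.61 and 12.66 in the knockout arrays, against 11.31, 11.50, 11.70 and 11.57 in the control arrays. Its knockout arrays were nearly equal (SD 0.03), its control arrays were more spread (SD 0.16), and the groups did not overlap (2.15-fold, log2 interval 0.92 to 1.28; limma adjusted p = 3.14e-05). Col6a1 had 12.35, 12.58, 12.59 and 12.42 in the knockout arrays, against 11.36, 11.38, 11.65 and 11.50 in the control arrays. It was 2.01-fold higher without overlap (log2 interval 0.82 to 1.20; limma adjusted p = 7.31e-05).

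The other type VI chains gave log2 changes of 0.02 for Col6a5, 0.00 for Col6a6 and -0.03 for Col6a4, at levels between 7.17 and 8.01 in both groups. Their 95% intervals lay between -0.23 and 0.24. Col6a5 and Col6a6 each had a second, dimmer probe set, with changes of 0.29 (SE 0.09, limma adjusted p = 0.0868) and -0.09 (SE 0.06, limma adjusted p = 0.572). The 3 genes lie side by side on chromosome 9, and Col6a1 and Col6a2 side by side on chromosome 10 with no coding gene between them. Col18a1, with 2 coding genes between it and Col6a1, had a change of 0.14 (SE 0.08, limma adjusted p = 0.493).

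Among 11 fibrillar chains, Col3a1, Col1a1 and Col1a2 rose, Col24a1 fell, and 7 did not pass. Col3a1, the only chain of type III collagen, had log2 levels of 11.90, 12.04, 11.92 and 11.82 in the knockout arrays, against 10.88, 10.97, 11.01 and 10.96 in the control arrays. The groups were well apart relative to SDs of 0.09 and 0.05, a 1.95-fold difference (log2 interval 0.83 to 1.10; limma adjusted p = 1.10e-05). Col1a1, the alpha 1 chain of type I collagen, had 11.35, 11.24, 11.32 and 11.18 in the knockout arrays, against 10.32, 10.63, 10.51 and 10.36 in the control arrays. It was 1.76-fold higher (log2 interval 0.64 to 0.99; limma adjusted p = 0.000176). Col1a2, the alpha 2 chain of type I, had 11.76, 11.87, 11.85 and 11.73 in the knockout arrays, against 11.09, 11.23, 11.27 and 11.24 in the control arrays, which made it 1.51-fold higher (log2 interval 0.46 to 0.73; limma adjusted p = 0.000271). In all 3 genes the lowest knockout array was above the highest control array.

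Col24a1, which encodes a fibrillar chain described in developing bone and cornea of the mouse, was the collagen gene that fell. Its log2 levels were 7.98, 7.92, 7.68 and 7.78 in the knockout arrays, against 8.38, 8.43, 8.46 and 8.44 in the control arrays. The control arrays were nearly equal (SD 0.03) and the knockout arrays more spread (SD 0.13), with no overlap, and the change was -0.59 (interval -0.75 to -0.43; limma adjusted p = 0.00071). Its signal was modest, and RMA compresses differences of dim probe sets.

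The minor fibrillar chains, named here after their values were seen, changed less. Col27a1, a fibrillar chain of cartilage and other tissues, had 9.71, 9.75, 9.63 and 9.76 in the knockout arrays, against 9.56, 9.52, 9.22 and 9.42 in the control arrays. Its groups did not overlap, and its change of 0.29 (SE 0.08) did not pass (limma adjusted p = 0.0634). Col5a2, a type V chain that takes part in starting type I fibrils, had a change of 0.20 (SE 0.06, limma adjusted p = 0.0835) and Col5a1, its partner, one of 0.09 (SE 0.05, limma adjusted p = 0.476). Without control 1 Col27a1 passed (change 0.33, limma adjusted p = 0.0436), and without knockout 8 Col5a2 passed (change 0.25, limma adjusted p = 0.0416). The remaining Col5a3, Col2a1, Col11a2 and Col11a1 had changes between 0.00 and 0.06 in size, with intervals from -0.25 to 0.28.

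**Figure D2:**
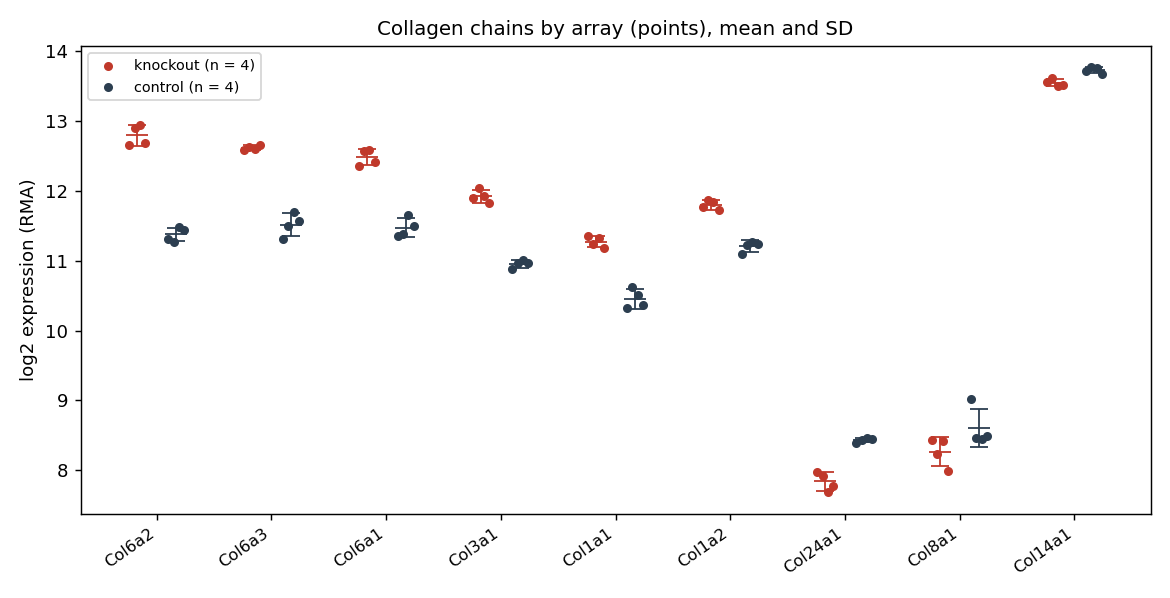
Log2 expression (RMA) in each of the 4 knockout arrays (red points, left of each pair) and 4 control arrays (dark points, right), with the mean and SD of each group, for the 7 collagen genes past the threshold and for Col8a1 and Col14a1. The knockout points of the 6 chains on the left lie above all their control points, those of Col24a1 below, and the groups of Col8a1 and Col14a1 lie close together.

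No network collagen passed the test. Col4a1 and Col4a2, the chains of the common type IV network in basement membranes, are neighbours on chromosome 8 in opposite orientation, and their start windows overlap. Col4a1 had log2 levels of 11.31, 11.30, 11.22 and 11.31 in the knockout arrays, against 11.12, 11.24, 11.30 and 11.24 in the control arrays, a change of 0.06 (interval -0.07 to 0.18; limma adjusted p = 0.736). Col4a2 had 10.91, 10.86, 10.90 and 10.88 in the knockout arrays, against 10.49, 10.73, 10.81 and 10.82 in the control arrays, a change of 0.18 (interval 0.01 to 0.35; limma adjusted p = 0.256). Sinusoidal endothelial cells also make type IV chains, and the endothelial marker mean was 8.65, 9.58, 9.35 and 9.93 in the knockout arrays, against 8.66, 10.68, 9.60 and 11.18 in the control arrays. With this mean and the hepatocyte mean as covariates, neither type IV chain passed. Col8a1, a short-chain collagen of vessel walls and endothelium, had 8.43, 8.23, 8.42 and 7.98 in the knockout arrays, against 9.02, 8.46, 8.45 and 8.49 in the control arrays. Control 1 stood above the other control arrays, the groups did not overlap, and the change of -0.34 did not pass (SE 0.15; limma adjusted p = 0.272). Without control 1 it was -0.20 (limma adjusted p = 0.44), and with the hepatocyte and endothelial means as covariates it was -0.51 and passed (limma adjusted p = 0.0476). Col8a2, Col10a1 and the other 4 type IV chains had changes between -0.05 and 0.06.

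The FACITs and the membrane and multiplexin chains did not pass either. Col14a1, which encodes type XIV collagen on the surface of fibrils, is known as a marker of fibroblasts and stellate cells, and its signal was near the top of the value range. It had 13.57, 13.61, 13.51 and 13.52 in the knockout arrays, against 13.72, 13.77, 13.76 and 13.68 in the control arrays. All knockout arrays were lower by a small amount, and the change of -0.18 (interval -0.29 to -0.07) missed the threshold (limma adjusted p = 0.0619). With a trend and robust fitting in eBayes it passed (limma adjusted p = 0.00928). Col12a1, a FACIT related to type XIV, had 6.64, 6.69, 6.78 and 6.62 in the knockout arrays, against 6.55, 6.53, 6.33 and 6.44 in the control arrays. Its levels were close to those of the receptor genes, and the change of 0.22 (SE 0.06) did not pass (limma adjusted p = 0.0841). The 4 transmembrane chains had changes from -0.12 (Col25a1) to 0.04 (Col13a1), the multiplexins Col18a1 and Col15a1 of 0.14 and -0.05, and Col7a1 (the anchoring fibril collagen), Col26a1 and Col28a1 between -0.03 and 0.00.

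The chains that rose were among those with strong signal. Of the 10 collagen genes with a control mean above a log2 level of 10, a division made after the values were seen, 6 rose and 4 did not pass (Col14a1, Col4a1, Col4a2 and Col5a1). Of the 34 others, 1 fell and 33 did not pass. Over all 4302 genes with a control mean above 10, 249 were called higher and 433 lower. A probe set's signal depends on its probes, so this does not rank the transcripts by abundance. In all, 41 of the 44 genes stood above the receptor percentile of 6.77 in at least 1 group, including chains known from cartilage such as Col2a1 and Col9a3 at 8.36 and 8.58 in knockout arrays and 8.33 and 8.59 in control arrays. A level above that percentile is therefore not by itself a sign that a chain was transcribed.

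**Figure D3:**
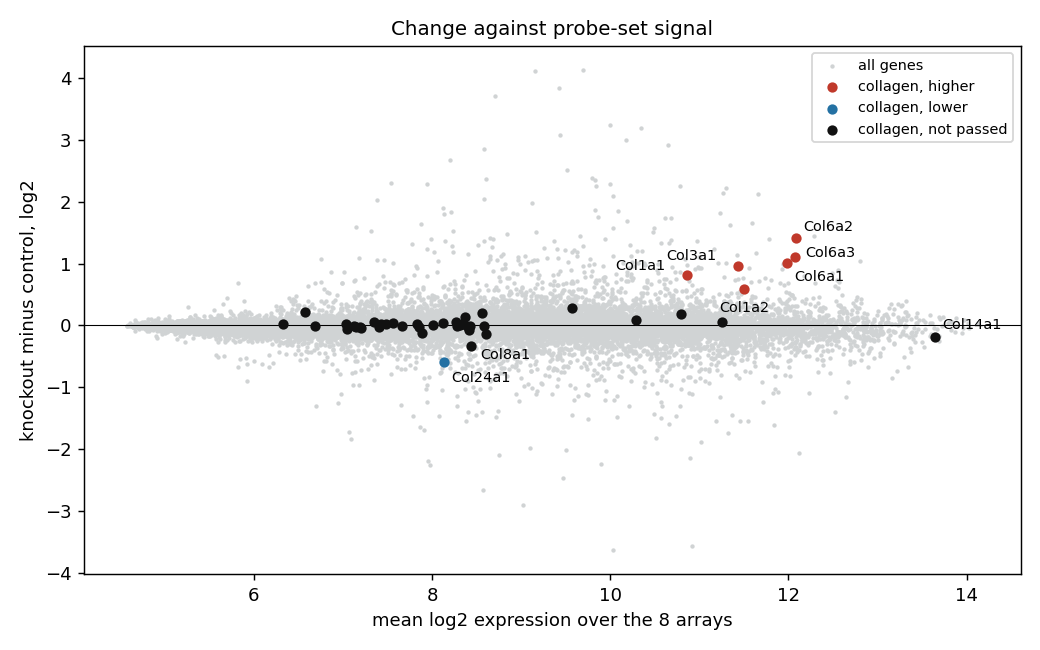
The log2 difference between knockout and control (vertical axis) against the mean log2 expression over the 8 arrays (horizontal axis), for all genes (grey) and for the collagen genes (red higher, blue lower, black not passed). The 6 risen chains lie at mean levels between 10.86 and 12.09, and most of the other collagen genes lie below 9 and close to 0.

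The arrays with the lowest values were counted after the levels were seen. In 30 of the 37 genes that did not pass, control 3 was the lowest control array, and knockout 7 was the lowest knockout array in 20 of them and knockout 8 in 14. Over all genes, knockout 7 was the lowest knockout array in 30.2% and knockout 8 in 29.4%, and control 3 was the lowest control array in 34.5% and control 1 in 24.8%. Of the 7 called genes, control 3 was lowest in 0 and control 1 in 6. Leaving out control 3 took the median change of the 44 genes to -0.08 and the number of positive changes from 25 to 13, and leaving out knockout 7 took them to 0.06 and 35. The direction of the small changes therefore depended on single arrays, while the 7 calls were the same genes in each fit that left out 1 array, with 1 further gene in 2 of these fits (Col27a1 without control 1, Col5a2 without knockout 8).

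Differences between chains within an array were compared for 12 pairs of chains, of which 11 share a trimer, a fibril or a class or are neighbours in the genome, while Col6a2 against Col1a1 sets a type VI chain beside a type I chain. Levels of different probe sets cannot be set against each other, so the shift of their difference between the groups was tested, by the exact two-sided permutation test over the 70 assignments of arrays. No pair passed after Benjamini-Hochberg adjustment over the 12 pairs. The smallest p that 4 arrays against 4 allow, 0.0286, was reached by 4 pairs (adjusted p = 0.0857). Adjusted over 12 pairs, this p can pass only if more pairs than these reach it, so the test could not call a single shift. Col6a2 minus Col6a1 was 0.30, 0.33, 0.36 and 0.26 in the knockout arrays, against -0.05, -0.11, -0.17 and -0.07 in the control arrays, so that the log2 change of Col6a2 exceeded that of its neighbour by 0.41 (SE 0.03). Col3a1 minus Col5a2, also neighbours, was 3.22, 3.30, 3.23 and 3.29 in the knockout arrays, against 2.48, 2.44, 2.55 and 2.51 in the control arrays, a shift of 0.76 (SE 0.03). These 2 shifts had the smallest standard errors of the 12, with no overlap between the groups.

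The shift of Col6a2 against Col1a1 was 0.60 (SE 0.12), again without overlap. The fourth of these pairs was Col14a1 against Col12a1, and its shift is not read as a size because Col12a1 was below the receptor percentile in both groups and Col14a1 lay near the top of the value range. Col1a1 minus Col1a2, the chains of the type I trimer, was -0.41, -0.63, -0.52 and -0.55 in the knockout arrays, against -0.77, -0.61, -0.76 and -0.88 in the control arrays. These groups overlapped at 1 array each, with a shift of 0.23 (SE 0.07; exact permutation p = 0.0571, adjusted p = 0.137). Col6a3 against Col6a1 shifted by 0.09 (SE 0.07; exact permutation p = 0.257) and Col3a1 against Col1a1 by 0.15 (SE 0.08; exact permutation p = 0.143). The other 5 pairs had shifts between -0.40 and -0.06 and overlapping groups.

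**Figure D4:**
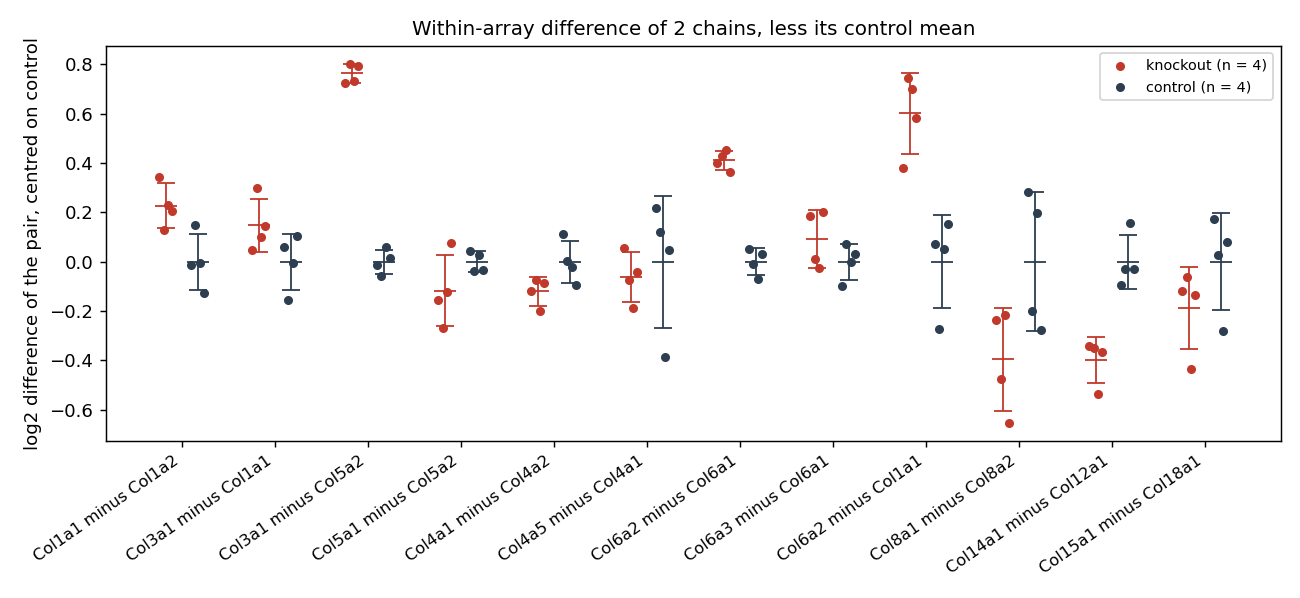
The within-array log2 difference of 12 pairs of collagen chains, with the control mean of each pair subtracted, in the 4 knockout arrays (red, left) and the 4 control arrays (dark, right), with mean and SD. The knockout points of Col3a1 minus Col5a2, Col6a2 minus Col6a1 and Col6a2 minus Col1a1 lie above their control points and those of Col14a1 minus Col12a1 below, where Col12a1 was under the receptor percentile in both groups.

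Other genes that modify, crosslink, break down or bind collagen were followed as a list of 52, of which 48 were measured. Of these, 16 rose and 0 fell in limma, 33.3% of the list (over all genes 3.76% were called higher and 3.63% lower). The median change of the list was 0.10, beside -0.02 over all genes. The list was chosen with earlier results of these data known, so these shares do not test it. Its genes were also brighter, with a median level of 10.6 beside 7.94 over all genes. Over the 4302 genes with a control mean above 10, 249 were called higher and 433 lower. At an unadjusted p under 0.05, 21 of the 48 were higher (8.91% of all genes) and 4 lower (8.57% of all genes). Without control 1 and control 4, the number risen was 9, in a comparison of fewer arrays.

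The changes were spread over several steps. Among modifying enzymes, the prolyl 3-hydroxylases P3h1 (0.28, SE 0.05) and P3h2 (0.60, SE 0.05), their relative P3h4 (0.33, SE 0.08), the complex partner Crtap (0.27, SE 0.05) and the lysyl hydroxylase Plod2 (0.54, SE 0.12) rose on the log2 scale. The crosslinking oxidases Lox and Loxl1 rose by 2.05 (SE 0.18) and 1.33 (SE 0.10), and Pcolce, the enhancer of propeptide cleavage, by 0.22 (SE 0.06). Of the same oxidase family, Loxl3 (-0.19, SE 0.05, limma adjusted p = 0.0598) and Loxl4 (0.13, SE 0.07, limma adjusted p = 0.363) did not pass. Genes of collagen breakdown and uptake rose too, namely the gelatinase Mmp2 (1.05, SE 0.06), the membrane protease Mmp14 (0.28, SE 0.07), the endocytic collagen receptor Mrc2 (1.12, SE 0.06) and the lysosomal protease Ctsk (0.95, SE 0.10).

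Among receptors, Itga11, a collagen-binding integrin chain, rose by 0.75 (SE 0.10), at levels below those of Col2a1 in both groups. Ddr1 and Ddr2, the discoidin domain receptor kinases, rose by 0.73 (SE 0.07) and 0.36 (SE 0.05). Antxr2, a receptor that binds type VI collagen (0.35, SE 0.07), completed the list of rises. The other integrin chains, Itga1 (-0.12, SE 0.05), Itga2 (-0.18, SE 0.08), Itga10 (-0.04, SE 0.06) and Itgb1 (-0.18, SE 0.06), did not pass. Neither did the receptors Antxr1 (-0.04, SE 0.06) and Lair1 (0.02, SE 0.07). Of the folding and modifying genes, Serpinh1 (0.00, SE 0.07), P4ha1 (0.03, SE 0.12), P4hb (-0.04, SE 0.06) and Ppib (0.03, SE 0.05) did not pass. Neither did Fkbp14 (0.31, SE 0.09, limma adjusted p = 0.067), P4ha2 (0.32, SE 0.18), Colgalt2 (0.26, SE 0.13), Plod1 (-0.01, SE 0.06) and P4ha3 (-0.01, SE 0.05). P3h3 (0.14, SE 0.05), Plod3 (0.11, SE 0.05) and Colgalt1 (0.15, SE 0.06) did not pass, with every knockout array above every control array (6.38% of all genes). Cspg4, the NG2 proteoglycan and a type VI binding partner, had a change of -0.20 (SE 0.07, limma adjusted p = 0.145). The calls of Mmp14, P3h4 and Pcolce were lost with median centring (limma adjusted p = 0.0615, 0.0546 and 0.0616). With the hepatocyte and endothelial means as covariates those of P3h4 and Pcolce were lost (limma adjusted p = 0.0817 and 0.103), and with a filter at the receptor median that of Pcolce (limma adjusted p = 0.0507). The calls of 4 genes changed when single arrays were left out: those of P3h4 and Pcolce held only in the fit without control 3 among those that left out 1 array (highest limma adjusted p 0.112 and 0.133), that of Mmp14 held only without knockout 5 (0.0992), and that of Plod2 was lost without control 3 or knockout 5, 6 or 7 (0.0844).

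**Figure D5:**
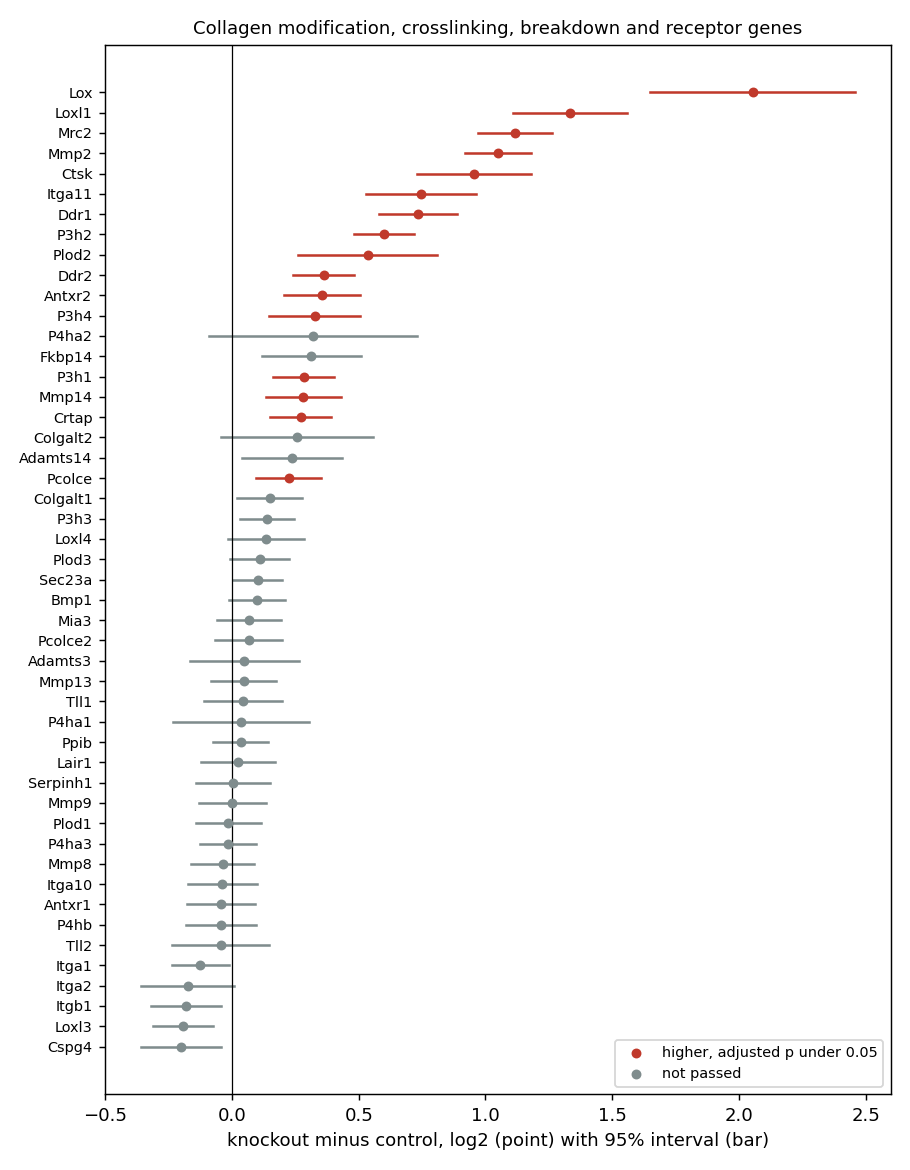
The log2 difference between knockout and control (points) with its 95% interval from limma (bars) for the 48 measured genes of collagen modification, crosslinking, breakdown and binding. Lox, Loxl1, Mrc2 and Mmp2 have changes above 1, and the genes at the lower end, from Itga1 to Cspg4, did not pass.

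Markers of other matrix-producing cells were measured on the same arrays. Of 14 portal fibroblast markers, a list chosen with earlier results of these data known, 6 rose and 8 did not pass. Over all genes 3.76% were called higher and 3.63% lower. The rises were in Cd34 (3.08), Gas6 (3.01), Dpep1 (2.37), Dpt (2.28), Eln (0.81) and Mfap4 (0.39) on the log2 scale. The mean of the list was 8.60, 8.57, 8.71 and 8.52 in the knockout arrays, against 7.62, 7.76, 7.78 and 7.84 in the control arrays. Thy1, a defining marker of these cells, averaged 7.41 in knockout and 7.51 in control arrays. Gli1 averaged 7.77 in knockout and 7.78 in control arrays, and Msln 6.90 in knockout and 6.91 in control arrays. Entpd2 (-0.29, SE 0.12, limma adjusted p = 0.245) and Fbln2 (0.27, SE 0.08, limma adjusted p = 0.101) had larger changes that did not pass. Clec3b, Pi16 and Upk1b had changes of 0.14, -0.01 and 0.01. The levels of Thy1, Gli1, Msln, Fbln2, Clec3b, Pi16 and Upk1b, and those of the risen Mfap4 (7.96 in knockout and 7.57 in control arrays), lay below those of Col2a1 and Col9a3. Such levels are not by themselves a sign of transcription. The part of portal fibroblasts in the collagen values was not tested. Of 11 vascular smooth muscle markers 1 rose (Tagln) and 4 fell (Rgs4, Mcam, Kcnj8 and Smtn), and the mean of the list ran from 9.78 to 10.01 over the knockout arrays and from 10.11 to 10.17 over the control arrays. With the hepatocyte and endothelial marker means as covariates, the 6 chains rose by 0.61 to 1.45 and Col24a1 fell by 0.66, all past the threshold. The portal fibroblast and smooth muscle means were not among the covariates, so this fit does not bear on those cells. Without control 1 and control 4 the same 7 genes passed, the 6 chains with changes of 0.55 to 1.42 and Col24a1 with a change of -0.61 (limma adjusted p = 0.0137).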

How the data were processed

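Expression in 8 samples, 4 knockout and 4 control, grouped by the sample titles, was analysed from the deposited log2 values, 1 per probe set and array. Per the labels' protocols, 150 ng of RNA per sample was converted to labelled cDNA, and per the submitters' processing notes the authors normalized the arrays with the Robust Multichip Algorithm (RMA), which corrects background, equalises the distributions and summarises probes. The RMA version is not given in the sources used here, and neither is a genome build or a batch.

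Of 35556 probe sets, 21789 had 1 gene symbol in the platform annotation, and no collagen symbol was among the 1621 with several. Symbols were checked by gene identifier against RefSeq (GRCm38.p6), which changed 0 of them. In R 4.3.3, limma 3.58.1 (lmFit, eBayes) fitted knockout minus control, two-sided, over 19938 genes with no filter, Benjamini-Hochberg adjustment and a threshold of 0.05. The step was tested on simulated data with known changes. Array values ran from 4.19 to 14.4, and the number of arrays limits the precision.

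The collagen genes, their classes, the gene lists, the marker lists, the pairs and the alternatives were chosen with earlier results of these data known. Values per array were set for genes past the threshold and for those above the receptor percentile with a change of at least 0.3 (log2), which added Col8a1; those of other genes were chosen after the values were seen. Alternatives were median centring, quantile normalization, 2 filters on dim genes, array weights, robust eBayes with a trend, each gene's mean over its probe sets, single probe sets, leaving out arrays in turn, leaving out control 1 and control 4, marker means as covariates, and a threshold of 0.01. Protein sequences were not used here.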

Additional observations from a re-analysis of the deposited data

Results flagged for a closer look

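In groups of 4 arrays, a sample was picked out where its gap to the nearest other array exceeded, as a share of the group's range, Dixon's 95% critical value. Of 114 groups checked, 7 were picked out, and chance alone picks out about 1 in 20. None of the genes past the threshold is among them. In the knockout group, Col11a1 was 7.48 in knockout 8, against 7.70 to 7.74 in the others, Col4a1 was 11.22 in knockout 7, against 11.30 to 11.31, and Col6a6 was 7.91 in knockout 7, against 8.03 to 8.05. The difference Col14a1 minus Col12a1, in which Col12a1 was below the receptor percentile in both groups, was 6.73 in knockout 7, against 6.90 to 6.93 in the other knockout arrays. In the control group, Col10a1 was 6.01 in control 3, against 6.38 to 6.46 in the others, and Col4a5 was 6.81 in control 3, against 7.19 to 7.26. Col8a1 was 9.02 in control 1, against 8.45 to 8.49 in the other control arrays.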

How the results depend on the processing

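The 6 rises and the fall of Col24a1 were the same genes under all 19 alternatives. The number of collagen genes called higher was 6 to 7 when 1 array was left out, and 7 also with array weights, where Col27a1 was added. The number called lower was 1, and also 1 when any 1 array was left out. It was 2 with trend and robust eBayes, which added Col14a1, and 2 with the hepatocyte and endothelial means as covariates, which added Col8a1. In the list of modifying, crosslinking, breakdown and receptor genes, the 16 risen became 9 at a threshold of 0.01 and 9 without control 1 and control 4, and 12 to 15 when 1 array was left out. The 0 fallen became 1 with quantile normalization, 1 with array weights and 0 to 1 when 1 array was left out (Loxl3, without control 2), and 1 with the covariates (Cspg4). For these changes the cause was not tested. The change of Lhx2 ran from -0.73 to -0.59 when 1 array was left out. No pair of chains passed after adjustment when 1 array was left out, where the smallest possible p stays too large to pass unless several pairs reach it, and none could pass without control 1 and control 4. Over all genes, the 749 higher and 723 lower calls became 386 and 389 at a threshold of 0.01, and 371 and 405 without control 1 and control 4. No paired analysis was possible because the groups share no replicate numbers.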
